A study of Mus musculus with 16 samples.

Results

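Nmp4 knockout (KO) mesenchymal stem/progenitor cells (MSPCs) were compared with wild type (WT) MSPCs after 3 days in a sparse culture that did not induce differentiation. Members were all libraries that the labels place at day 3, which are 4 KO and 4 WT libraries out of the 16 of the series, and the 13474 genes of the deposited table were all tested. MSPCs are bone marrow cells that grow on plastic and can give rise to bone, fat and cartilage cells. Nmp4 is another name of Zfp384, a zinc finger transcription factor known in bone for limiting the response to anabolic hormone.

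All 4 groups were mouse bone marrow MSPCs of the C57BL/6 strain at passage 5 to 10. The KO and WT day 3 groups were seeded at 10000 cells per well (25 cells per mm2) and kept in Mesencult medium with its stimulatory supplement, with no further treatment. KO and WT day 7 groups were seeded at 25000 cells per well (62 cells per mm2) in α-MEM, and from 48 hours received ascorbic acid (5 µg/mL), dexamethasone (10 nM) and glycerol 2-phosphate (10 mM). Each genotype and day had 1 biological replicate and 4 technical replicates, taken here as single wells. Every p-value below thus rests on the spread between libraries within a culture, estimated jointly over all 4 groups, and not on a spread between cultures. The difference between genotypes is therefore also the difference between 2 cultures, and the effect of the knockout cannot be told apart from that of the culture. The labels do not give the method of the knockout, the sex or number of the animals, or what the letter in WT library 1b stands for. Library 1b may be a repeat well or a repeat library.

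Library totals ran between 31285188 and 38093753 counts in KO and between 36133472 and 47635039 counts in WT, and RNA integrity numbers were 10 in KO and 9.5 to 10 in WT. Levels are TMM-scaled CPM (counts scaled to a common library size), listed for KO libraries 5, 6, 7 and 8 and for WT libraries 1, 1b, 3 and 4. Genes between 2 libraries of a group differed by a median of 0.0552 to 0.0875 on the log2 scale over 12 pairs, and between a KO and a WT library by 0.524 to 0.546 over 16 pairs. Zfp384 itself (chr6:125009238-125037870 on the plus strand) had 93.5, 89.7, 92.3 and 90.6 CPM in KO libraries, against 84, 80.6, 81.8 and 81 CPM in WT libraries. No KO library was below a WT library, with a log2 fold change (KO over WT, ± its standard error) of 0.16 ± 0.04 (adjusted p = 0.000139), so its RNA level did not separate the genotypes in the direction of a knockout. Whether the deleted part lies outside the counted exons is not given, and the libraries are called KO as labelled. Markers of marrow stroma were present in both groups, with Runx2 at 138 CPM in KO and 107 CPM in WT and Pdgfrb at 384 CPM in KO and 387 CPM in WT (Pdgfrb was higher in KO by 0.49 under the authors' library sizes). The surface marker Ly6a (Sca-1) had 29.5, 31.5, 29 and 30.8 CPM in KO libraries, against 96.6, 98.5, 88.4 and 94.4 CPM in WT libraries, and Thy1 (CD90) had 0.0568, 0.135, 0.0943 and 0.0653 CPM in KO libraries, against 12.9, 13.2, 12.3 and 12.5 CPM in WT libraries. Over the list of stromal progenitor markers 8 of 21 were higher and 10 lower in KO, and 11 and 10 under the authors' library sizes. Thy1 was nearly absent from the KO libraries, while the MSPC markers Cd44 and Nt5e (CD73) rose by 1.43 ± 0.04 and 1.03 ± 0.11. The pan-leukocyte gene Ptprc (CD45) had 0.199, 0.296, 0.189 and 0.294 CPM in KO libraries, against 1.54, 1.4, 1.79 and 1.6 CPM in WT libraries.

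Of the 13474 genes, 11638 (86.4%) differed between KO and WT at an adjusted p under 0.05 in edgeR's quasi-likelihood test, with Benjamini-Hochberg adjustment over all genes, of which 5788 (43%) were higher and 5850 (43.4%) lower in KO. At least a 2-fold difference was called for 3905 genes (29%), with 1583 higher (11.7%) and 2322 lower (17.2%). All 4 KO libraries lay above all 4 WT libraries for 5543 genes (41.1%) and below them for 5569 (41.3%). These shares are the background for each gene group below. The balance of directions depends on scaling: under the library sizes that the authors' scaled values imply, the median log2 fold change of all genes was 0.49 and 72.9% of called genes were higher (8677 higher, 3220 lower), against 49.7% with TMM. Changes are given relative to the TMM scale, on which the median gene changed by -0.004.

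Among abundant genes, the largest differences on the TMM scale ran toward loss in KO. Among 5272 genes whose higher group averaged 50 CPM or more, 39 genes were lower at least 16-fold and 12 were higher. Ano3, a calcium-dependent phospholipid scramblase gene (chr2:110655201-110950244 on the minus strand), had 0.114, 0.0269, 0.0314 and 0 CPM in KO libraries, against 95.4, 94.4, 98.9 and 96.4 CPM in WT libraries, a log2 fold change of -10.97 ± 0.11 (adjusted p = 2.25e-33). Svop, a synaptic vesicle transporter-like gene, had 0.114, 0.0269, 0.157 and 0.0326 CPM in KO libraries, against 111, 117, 109 and 109 CPM in WT libraries. Gpx3, which encodes the secreted glutathione peroxidase, had 2.38, 2.51, 3.24 and 3 CPM in KO libraries, against 1448, 1525, 1477 and 1522 CPM in WT libraries. These genes were nearly silent in all 4 KO libraries and plainly expressed in all 4 WT libraries, and Gpx3 had a log2 fold change of -9.08 ± 0.07 (adjusted p = 3.39e-35). Cpz, a secreted carboxypeptidase that binds Wnt proteins, had 0.142, 0.296, 0.189 and 0.196 CPM in KO libraries, against 82.9, 86.4, 84.5 and 85.5 CPM in WT libraries, a log2 fold change of -8.65 ± 0.09 (adjusted p = 3.41e-33). Fam212b and the carboxylesterase gene Ces2g were also on the list, at log2 fold changes of -7.83 ± 0.09 and -7.57 ± 0.09 (SE). Aldh1a2 and the Y-linked Ddx3y were also among the 8 lowest and are described further on.

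The 8 largest increases were led by Ankrd1 and Fhl1. Fhl1, a LIM-domain protein of muscle and stretch responses, had 213, 219.8, 238 and 235 CPM in KO libraries, against 1.74, 2.08, 2.18 and 2.46 CPM in WT libraries, a log2 fold change of 6.74 ± 0.09 (adjusted p = 1.51e-26). S100a4, a calcium-binding protein of motile mesenchymal cells, had 575, 563, 542 and 559.5 CPM in KO libraries, against 15.5, 15.7, 15.9 and 15.1 CPM in WT libraries. Both genes were at least an order of magnitude apart with no overlap of libraries, and S100a4 had a log2 fold change of 5.17 ± 0.07 (adjusted p = 1.58e-25). Cd34, a sialomucin of stem cells and vessels, had 65.3, 64.6, 63.4 and 64 CPM in KO libraries, against 1.34, 1.18, 1.2 and 1.46 CPM in WT libraries. Aqp1, the water channel, had 151, 144, 144 and 137 CPM in KO libraries, against 7.15, 8.35, 7.45 and 7.07 CPM in WT libraries. Log2 fold changes were 5.64 ± 0.07 for Cd34, 4.26 ± 0.05 for Aqp1 and 5.81 ± 0.1 for Cdsn, the corneodesmosin gene of skin, and every KO library exceeded every WT library for each. The list also held Slc16a3 and Vldlr, described with their pathways.

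**Figure D1:**
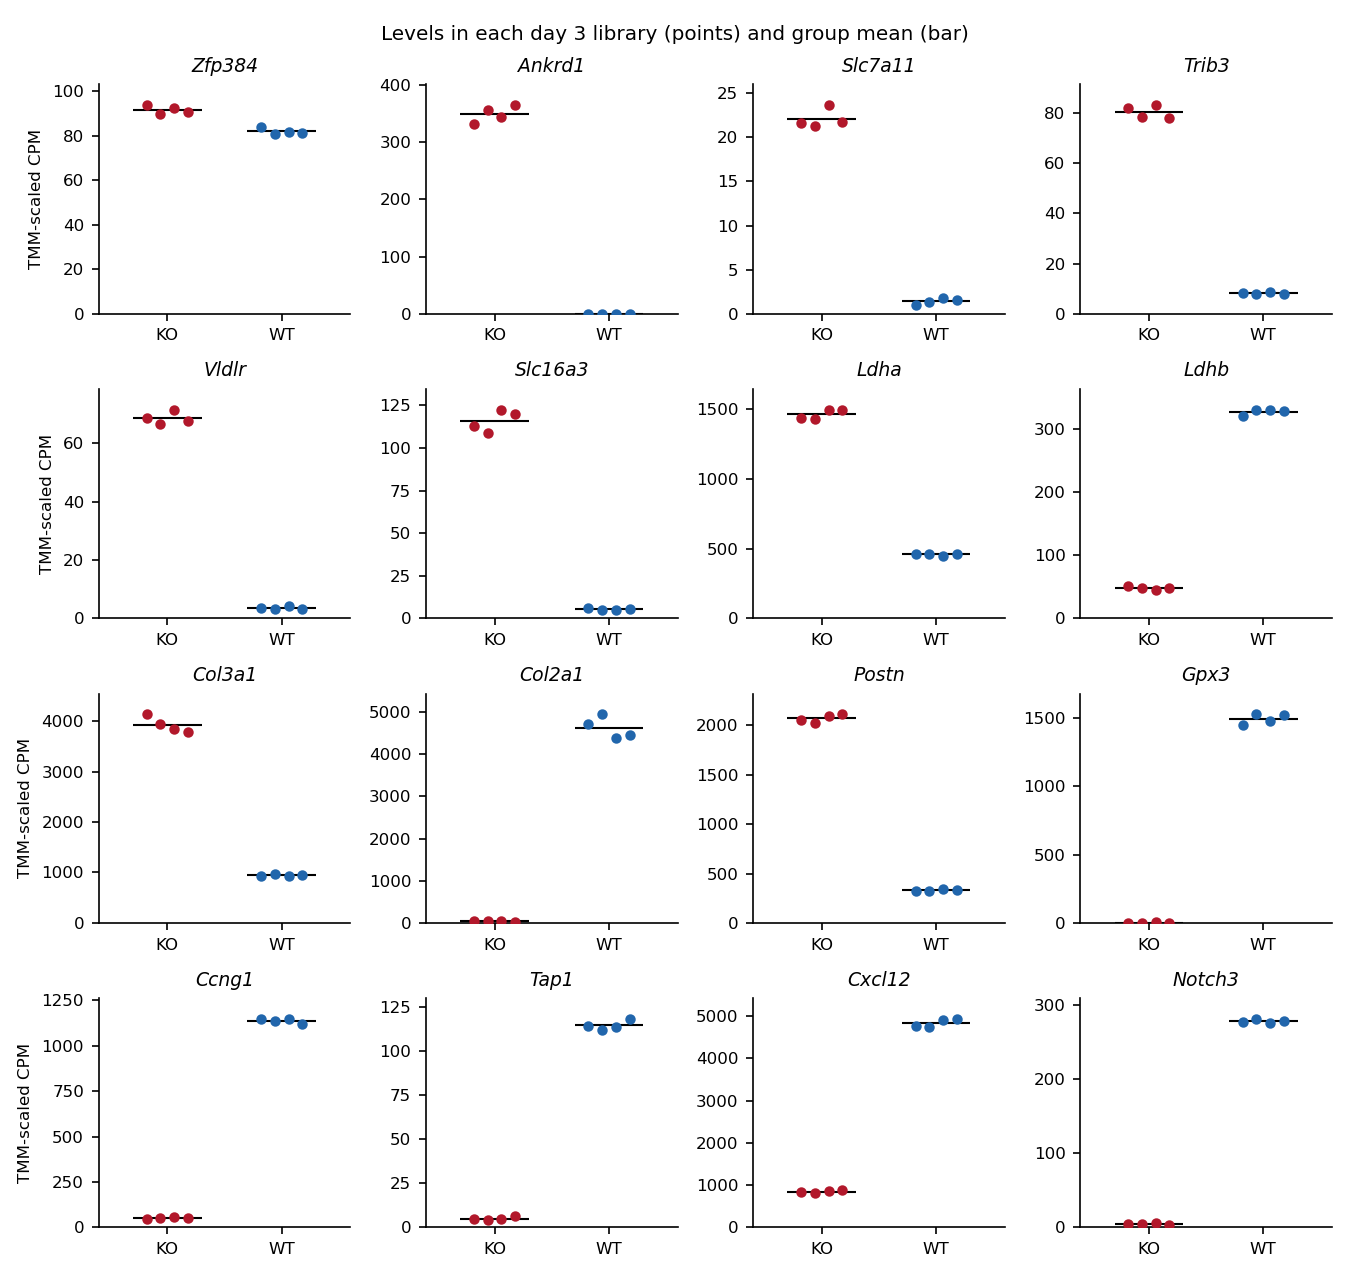
TMM-scaled CPM of 16 genes in each day 3 library, with KO on the left and WT on the right of every panel, the axis starting at 0, points for single libraries and a bar at the group mean. In no panel other than that of Zfp384 do KO and WT libraries come close to each other; Zfp384 lies at 91.5 CPM in KO and 81.9 CPM in WT on average.

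Cells that lack amino acids or accumulate unfolded protein phosphorylate the initiation factor eIF2, which raises translation of the transcription factor ATF4. ATF4 and its partners bind a composite C/EBP-ATF element and induce amino acid transporters, synthesis enzymes and aminoacyl-tRNA synthetases. In KO libraries 20 of 22 measured amino acid genes rose and 1 fell, with a median log2 fold change of 1.38, against -0.004 over all genes. Of these, 15 rose at least 2-fold. Their summed level was 4268 to 4415 CPM in KO libraries and 1920.0 to 1976 CPM in WT libraries.

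The short promoter stretches below are shown because they carry the letters of that element upstream of genes that rose. They are RefSeq sequences of mouse build GRCm38.p6, written 5′ to 3′ on the gene's own strand, and capitals mark matches to TGATGNAA or its reverse complement TTNCATCA.
Asns, chr6:7693210-7693252, minus strand: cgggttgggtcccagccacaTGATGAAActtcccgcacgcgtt
Slc7a11, chr3:50443633-50443699, minus strand: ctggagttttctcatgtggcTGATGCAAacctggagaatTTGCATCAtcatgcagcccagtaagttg
Chac1, chr2:119351029-119351076, plus strand: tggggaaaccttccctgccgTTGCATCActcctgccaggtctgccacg
Vldlr, chr19:27216800-27216847, plus strand: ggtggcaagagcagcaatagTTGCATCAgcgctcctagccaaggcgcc
Aars, chr8:111033710-111033757, plus strand: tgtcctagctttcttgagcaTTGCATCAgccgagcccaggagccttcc
Gars, chr6:55037951-55037998, plus strand: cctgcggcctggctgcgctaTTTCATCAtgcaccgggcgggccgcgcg

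Searched on both strands from 250 bases before to 50 bases after the start, the element was found in 274 of the 10166 genes with a promoter entry, which is 2.7%. It was present in 5 of 18 amino acid genes (27.8%), 5 of 12 synthetase genes (41.7%) and 6 of 19 regulators of the stress response (31.6%), and in 1 of 15 p53 target genes (6.67%). Slc7a11 held the letters on both strands. A match describes the letters only, and binding was not measured.

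Among transporters, Slc7a11, which imports cystine, had 21.6, 21.3, 23.6 and 21.7 CPM in KO libraries, against 1.01, 1.35, 1.75 and 1.6 CPM in WT libraries. Every KO library lay far above every WT library, with a log2 fold change of 3.93 ± 0.13 (adjusted p = 3.39e-18). Slc7a5, the large neutral amino acid transporter, had 515, 521, 507 and 495 CPM in KO libraries, against 111, 113, 106 and 111 CPM in WT libraries, and its partner chain Slc3a2 had 408, 406, 403 and 401 CPM in KO libraries, against 207, 212, 201 and 207 CPM in WT libraries. Both chains rose, Slc7a5 at a log2 fold change of 2.21 ± 0.04 (adjusted p = 3.60e-27) and Slc3a2 at 0.97 ± 0.05 (adjusted p = 3.76e-14). Slc6a9, a glycine transporter, rose by 2.52, and Slc7a3, a cationic amino acid transporter, by 2.56. Slc38a2, a neutral amino acid transporter often counted among ATF4 targets, did not pass the test at -0.06 ± 0.03 (adjusted p = 0.0819), and was higher by 0.44 under the authors' library sizes.

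Serine synthesis rose along its whole path. Phgdh, its first enzyme, had 436, 428, 413 and 418 CPM in KO libraries, against 179, 187, 175 and 178 CPM in WT libraries, a log2 fold change of 1.24 ± 0.04 (adjusted p = 8.51e-23). Psat1, the second, had 497, 507, 510.3 and 495 CPM in KO libraries, against 151, 144, 143 and 140.4 CPM in WT libraries, a log2 fold change of 1.8 ± 0.03 (adjusted p = 2.26e-27), and Psph, the last, rose by 2.02 on the same scale. Asns, which makes asparagine, had 248, 249, 256 and 248 CPM in KO libraries, against 88.1, 90.2, 88.2 and 91.1 CPM in WT libraries, and rose by 1.48 ± 0.03 (adjusted p = 3.05e-26). No KO library of these enzymes fell within the WT range. The 2 enzymes that turn homocysteine into cysteine moved apart: Cth, the second step, had 30.5, 30.0, 30.4 and 30.8 CPM in KO libraries, against 6.27, 6.7, 6.04 and 6.58 CPM in WT libraries, while Cbs, the first step, had 0.199, 0.108, 0.0628 and 0.196 CPM in KO libraries, against 7.05, 8.16, 7.08 and 7.37 CPM in WT libraries. Cth rose by 2.25 ± 0.06 (adjusted p = 1.26e-24) and Cbs fell, at -5.68 ± 0.18 (adjusted p = 7.02e-22), the only called decrease of the list.

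Cytosolic aminoacyl-tRNA synthetases, which load amino acids onto tRNAs, rose in 18 of 20 genes and fell in 2, with a median log2 fold change of 0.72. Lars, for leucine, had 285, 286, 287 and 286 CPM in KO libraries, against 80.3, 80.3, 81.2 and 79.9 CPM in WT libraries, and Nars, for asparagine, had 599, 604, 591 and 606 CPM in KO libraries, against 185, 189, 183 and 186 CPM in WT libraries. Those 2 genes rose by 1.83 ± 0.03 (adjusted p = 5.37e-29) and 1.69 ± 0.03 (adjusted p = 2.51e-28), with KO and WT libraries far apart. Both lie on chromosome 18, where the median gene was also higher in KO (below), and stayed higher by 1.15 and 1.01 after each chromosome's median was set to 0. Yars and Iars followed at 1.67 and 1.63, the bifunctional Eprs at 1.0, and Aars and Gars, whose promoters are printed above, at 0.91 and 0.76.

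Regulators of the stress response rose in 17 of 21 genes and fell in 4. Atf4, whose control is mainly at translation, had 465, 461, 451 and 447 CPM in KO libraries, against 308, 309.7, 304 and 311 CPM in WT libraries, a log2 fold change of 0.57 ± 0.03 (adjusted p = 1.56e-16). Trib3, a pseudokinase that dampens the response, had 81.6, 78.4, 82.9 and 77.8 CPM in KO libraries, against 8.24, 7.81, 8.57 and 7.93 CPM in WT libraries, a log2 fold change of 3.3 ± 0.06 (adjusted p = 7.60e-28). Chac1, which degrades glutathione, had 34.1, 32.2, 32.1 and 29.5 CPM in KO libraries, against 5.08, 5.87, 4.41 and 5.04 CPM in WT libraries. Every KO library was above every WT library for each of the 3, and Chac1 rose by 2.65 ± 0.07 (adjusted p = 4.23e-23). Vldlr, a lipoprotein receptor, had 68.8, 66.7, 71.5 and 67.5 CPM in KO libraries, against 3.66, 3.38, 4.11 and 3.2 CPM in WT libraries, a log2 fold change of 4.25 ± 0.06 (adjusted p = 6.59e-30). The hormone gene Fgf21 had 1.56, 1.45, 1.63 and 1.24 CPM in KO libraries, against 0, 0, 0.0203 and 0.0271 CPM in WT libraries, so a low but regular signal in KO stood against 2 WT libraries at 0. Ddit3 (CHOP) rose by 1.04 ± 0.07 and Ppp1r15a, which undoes eIF2 phosphorylation, by 2.01 ± 0.07. Not every stress gene rose: Ddit4 and Sesn2, which restrain the mTORC1 kinase, had 52.7, 45.8, 47.9 and 46.3 CPM in KO libraries, against 139, 142, 136 and 141 CPM in WT libraries for Ddit4, and 50.7, 46.9, 47.5 and 45.3 CPM in KO libraries, against 93.8, 97.4, 93.3 and 94 CPM in WT libraries for Sesn2. Both fell, at -1.53 ± 0.07 (adjusted p = 1.48e-13) and -0.99 ± 0.04 (adjusted p = 3.14e-20).

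Of 23 protein folding genes of the endoplasmic reticulum, 15 rose and 6 fell, with a median log2 fold change of 0.17 and 1 at least 2-fold. The counts were 21 higher and 1 lower, with a median of 0.67, under the authors' library sizes, and 18 and 1 with chromosome medians set to 0. Hspa5 (BiP), the chief chaperone, had 1427, 1419, 1432 and 1457 CPM in KO libraries, against 821, 823, 827 and 831 CPM in WT libraries, a log2 fold change of 0.8 ± 0.04 (adjusted p = 7.51e-18).

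Glycolysis splits glucose to pyruvate in the cytosol, and lactate dehydrogenase turns pyruvate into lactate, which leaves through monocarboxylate transporters. Of 21 genes, 15 rose and 5 fell in KO, with a median log2 fold change of 0.83, and their summed level was 10300.0 to 10650.0 CPM in KO libraries against 6003 to 6260.0 CPM in WT libraries. Slc2a1 (GLUT1), the glucose importer, had 113, 113, 120.1 and 121 CPM in KO libraries, against 30.2, 30.0, 30.0 and 28.9 CPM in WT libraries. Slc16a3 (MCT4), which exports lactate, had 113, 109, 122 and 120.2 CPM in KO libraries, against 6.09, 5.21, 5.05 and 5.42 CPM in WT libraries. Entry and exit of the pathway both rose, by 1.97 ± 0.1 (adjusted p = 1.26e-10) and 4.42 ± 0.23 (adjusted p = 3.15e-10). Pgk1 and Aldoa, enzymes of the middle of the path, rose by 1.62 and 1.22, and Pdk1, which restrains pyruvate use by mitochondria, by 1.63.

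The 2 lactate dehydrogenase chains moved in opposite directions. Ldha, the chain suited to making lactate, had 1435, 1427, 1492 and 1495 CPM in KO libraries, against 462, 463, 449 and 463 CPM in WT libraries. Ldhb, the chain suited to using lactate, had 51.7, 47.6, 45.8 and 47.8 CPM in KO libraries, against 322, 331, 330.2 and 329 CPM in WT libraries. Ldha rose by 1.67 ± 0.09 (adjusted p = 2.28e-10) and Ldhb fell, at -2.77 ± 0.04 (adjusted p = 1.35e-29), with no overlap of groups for either. Per kilobase of gene model, Ldha stood at 758 and Ldhb at 37 CPM in KO, against 238 and 252 CPM in WT. The neuron-type enolase Eno2 and the brain-type aldolase Aldoc also fell, at -2.0 ± 0.06 and -2.87 ± 0.21. Eno1, the main enolase of most cells, had 1.08, 1.05, 1.32 and 1.11 CPM in KO libraries, against 0.278, 0.426, 0.305 and 0.108 CPM in WT libraries, and because the genome holds near-identical copies of it this level is uncertain.

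Respiratory chain and ATP synthase genes had 21 of 78 higher and 49 lower, a median of -0.29, but under the authors' library sizes 51 were higher and 14 lower. Tissue-restricted chains differed in both directions: Cox6a2, the heart and muscle form, had 1.48, 1.7, 2.14 and 1.99 CPM in KO libraries, against 0, 0.0237, 0 and 0 CPM in WT libraries, and Cox6b2, the testis form, had 0.114, 0.0539, 0.0314 and 0.163 CPM in KO libraries, against 1.06, 1.94, 1.69 and 1.54 CPM in WT libraries. Cox6a2 rose by 7.61 ± 0.42 and Cox6b2 fell, at -4.09 ± 0.34.

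**Figure D2:**
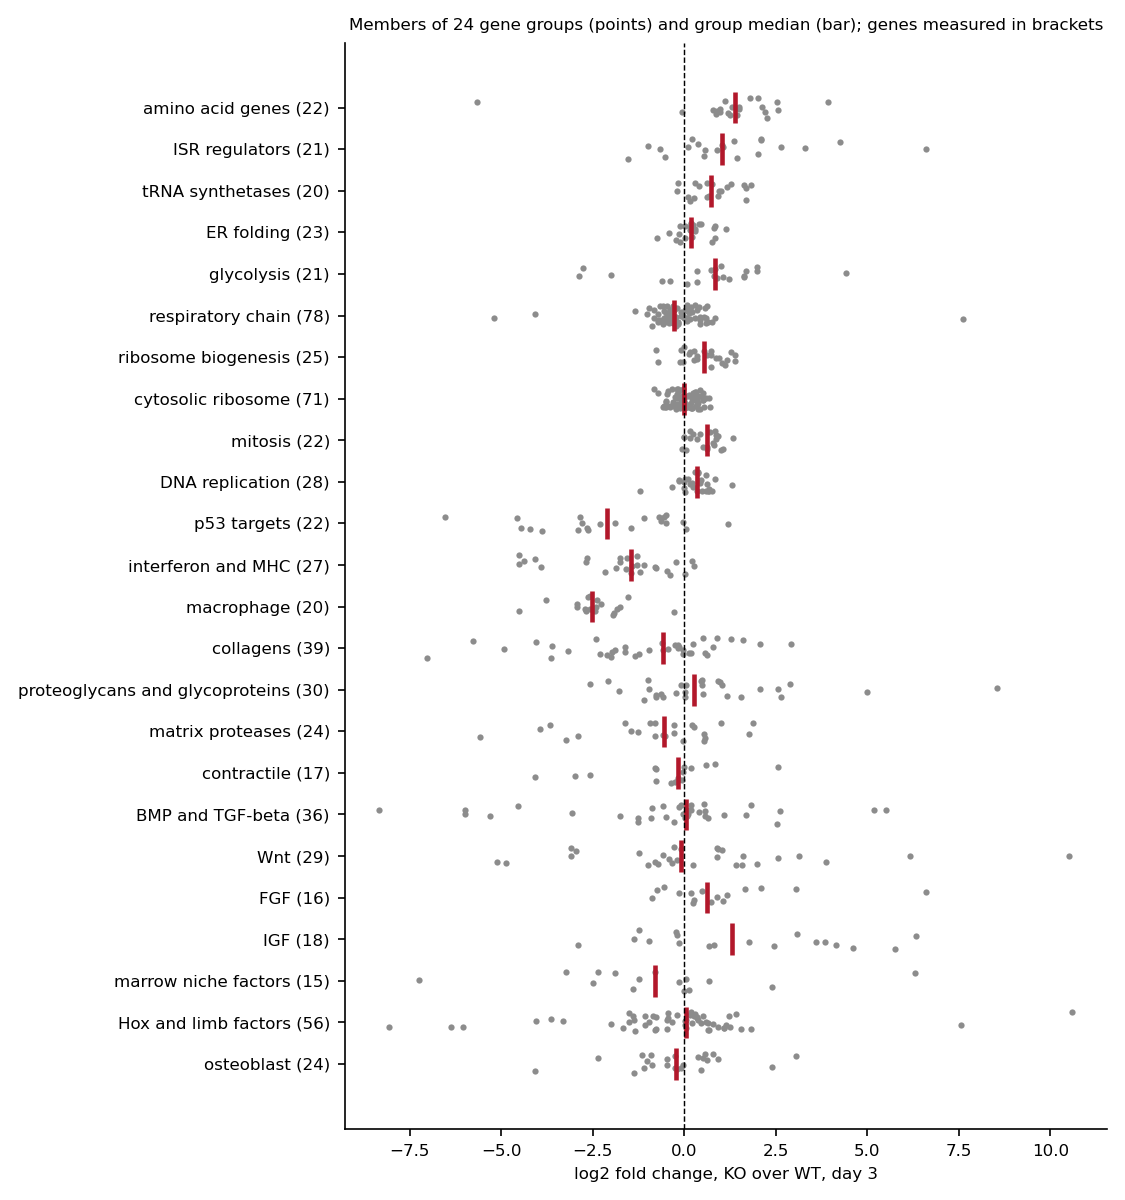
Log2 fold change of KO over WT at day 3 for every measured member of 24 gene groups (grey points), with the group's median as a bar, and a dashed line at 0. Amino acid, synthetase and glycolysis genes sit mostly to the right, p53 targets, interferon and macrophage genes mostly to the left, and collagens and most signalling groups spread widely to both sides.

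Collagen type I, the main fibre of bone, is built from Col1a1 and Col1a2 chains, type III from Col3a1, and type II, the fibre of cartilage, from Col2a1. Col1a1, the most abundant gene in these libraries, had 19967, 19184, 18131 and 17753 CPM in KO libraries, against 13219, 13568, 12747 and 13233 CPM in WT libraries, a log2 fold change of 0.51 ± 0.05 (adjusted p = 2.15e-10). Col3a1 had 4135, 3935, 3844 and 3781 CPM in KO libraries, against 923, 968, 925 and 946 CPM in WT libraries, and Col2a1 had 33.9, 42.2, 36 and 29.2 CPM in KO libraries, against 4719, 4949, 4396 and 4470.1 CPM in WT libraries. In KO libraries type III was high and type II nearly gone, at log2 fold changes of 2.06 ± 0.04 (adjusted p = 7.39e-27) and -7.03 ± 0.08 (adjusted p = 1.30e-23). Per kilobase of gene model Col2a1 stood at 6.89 and Col3a1 at 705 CPM in KO, while in WT Col2a1, at 903, exceeded Col3a1, at 169 CPM.

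Of 39 collagen chains, 10 rose and 24 fell, with 3 and 17 at least 2-fold and a median of -0.6, but 17 rose and 19 fell under the authors' library sizes. Type VI collagen, a beaded filament around cells, was lower in Col6a1 and Col6a2 but not in Col6a3: Col6a1 had 901, 828, 817 and 764 CPM in KO libraries, against 2528, 2629, 2533 and 2584 CPM in WT libraries, and Col6a2 had 539.7, 497, 478 and 445 CPM in KO libraries, against 2091, 2206, 2035 and 2133 CPM in WT libraries. They fell, at -1.63 ± 0.04 (adjusted p = 8.73e-25) and -2.11 ± 0.05 (adjusted p = 6.16e-26), whereas Col6a3 passed the test in the other direction at 0.19 ± 0.05. Col18a1, the basement membrane collagen that yields endostatin, had 20.9, 20.4, 18.3 and 17.1 CPM in KO libraries, against 172, 187, 168 and 175 CPM in WT libraries, a log2 fold change of -3.19 ± 0.05. Among scarce chains Col6a5, Col6a6 and Col28a1 fell, at -4.92, -4.06 and -5.77.

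Enzymes that hydroxylate, fold, cut and crosslink collagen divided into 9 higher and 11 lower of 22, a balance that became 15 and 4 under the authors' library sizes and 11 and 10 with chromosome medians set to 0. Serpinh1 (HSP47), the collagen chaperone, had 3216, 3208, 3168 and 3174 CPM in KO libraries, against 936, 954, 898 and 937 CPM in WT libraries, a log2 fold change of 1.78 ± 0.03 (adjusted p = 7.07e-28). Pcolce2, which speeds removal of the collagen C-propeptide, had 38.1, 41.1, 40.3 and 41.2 CPM in KO libraries, against 0.505, 0.426, 0.631 and 0.271 CPM in WT libraries. Among crosslinking enzymes Loxl2 rose by 2.01 ± 0.05, Loxl3 fell, at -2.0 ± 0.03, and Lox did not pass the test at 0.03 ± 0.06 (-0.65 with chromosome medians set to 0).

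Adhesive glycoproteins and proteoglycans had 14 of 30 genes higher and 10 lower. Fn1, fibronectin, had 14720.0, 15257, 14412 and 13157 CPM in KO libraries, against 6154, 6237, 6556 and 6633 CPM in WT libraries, a log2 fold change of 1.17 ± 0.05 (adjusted p = 6.70e-19). Postn, periostin, a matricellular protein of periosteum and healing tissue, had 2052, 2021, 2097 and 2111 CPM in KO libraries, against 320.3, 320.4, 340.1 and 336 CPM in WT libraries. Both were higher in each KO library, Postn by 2.65 ± 0.04 (adjusted p = 4.77e-30). Col1a1, Col1a2 and Fn1 together took 4.39% to 4.85% of all CPM in KO libraries and 2.95% to 3.01% in WT libraries. Thbs1, thrombospondin 1, also among the 10 most abundant genes, did not pass the test at 0.00 ± 0.04. Spp1, osteopontin, had 549, 543, 547 and 538 CPM in KO libraries, against 1231, 1213, 1118 and 1099.6 CPM in WT libraries, and fell, at -1.1 ± 0.13 (adjusted p = 3.73e-06). The small proteoglycans Lum and Dcn were at or near 0 in WT libraries: Lum had 2.04, 0.862, 1.16 and 0.914 CPM in KO libraries and no count in the 4 WT libraries, at least 70.2-fold higher against 3 counts over the group, and Dcn had 2.87, 2.8, 2.48 and 2.77 CPM in KO libraries, against 0.0505, 0.0946, 0.163 and 0 CPM in WT libraries.

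Matrix proteases and their inhibitors had 8 of 24 genes higher and 15 lower, with a median of -0.55, but 11 and 11 under the authors' library sizes. Serpine2, which blocks thrombin and plasminogen activators, had 22.1, 18.4, 19.6 and 19.9 CPM in KO libraries, against 952, 975, 986 and 975 CPM in WT libraries. Mmp13, the main collagenase of bone and cartilage, had 18.8, 16.3, 17.7 and 17.5 CPM in KO libraries, against 268, 289, 269 and 267 CPM in WT libraries. Both stood many-fold lower in every KO library, at -5.6 ± 0.05 (adjusted p = 3.91e-34) and -3.96 ± 0.08 (adjusted p = 3.20e-20). Plau (urokinase), a further part of the plasminogen system, fell, at -1.46 ± 0.04. Mmp9, at 0.89 CPM in KO and 11.5 CPM in WT on average, and Mmp23, at 16.1 CPM in KO and 154 CPM in WT, fell, at -3.68 ± 0.16 and -3.25 ± 0.05.

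Integrins are paired chains that bind matrix. Of 27 genes, 11 were higher and 14 lower, and 13 and 12 under the authors' library sizes. Itga6, part of a laminin receptor, had 97.5, 91, 95 and 101 CPM in KO libraries, against 7.23, 7.12, 7.55 and 8.01 CPM in WT libraries, a log2 fold change of 3.68 ± 0.06 (adjusted p = 9.80e-29). Itgb3, part of the vitronectin receptor, had 4.63, 4.39, 4.27 and 3.95 CPM in KO libraries, against 32.3, 35.4, 33.6 and 35.7 CPM in WT libraries, a log2 fold change of -2.99 ± 0.07 (adjusted p = 3.30e-25). The integrin-like secreted protein Itgbl1 had 8.57, 8.06, 8.7 and 6.66 CPM in KO libraries, against 0.0253, 0.071, 0.0203 and 0.108 CPM in WT libraries.

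YAP and TAZ enter the nucleus on stiff or open surfaces and act through TEAD factors on targets such as Ctgf, Cyr61 and Ankrd1. Ankrd1 (chr19:36111965-36119844 on the minus strand) had the highest fold change of any gene with at least 50 CPM that passed the test with no overlap of libraries. It had 332, 355, 344 and 364 CPM in KO libraries, against 0.278, 0.473, 0.224 and 0.352 CPM in WT libraries, which is 1050.0-fold, a log2 fold change of 10.04 ± 0.1 (adjusted p = 2.67e-31). Other targets went the other way: Ctgf had 359.5, 373, 381 and 429.6 CPM in KO libraries, against 679, 707, 666 and 667 CPM in WT libraries, and Cyr61 had 764, 770.3, 744 and 765 CPM in KO libraries, against 1482, 1474, 1427 and 1498 CPM in WT libraries. Both fell, at -0.82 ± 0.04 (adjusted p = 2.87e-17) and -0.95 ± 0.04 (adjusted p = 8.95e-20). The receptor kinase Axl rose by 1.24 ± 0.03, and of the TEAD factors Tead1 rose by 1.23 ± 0.04 and Tead2 by 1.57 ± 0.05. The whole list held targets and also the regulators Yap1, Wwtr1, Lats1, Lats2 and the TEAD factors. Of its 18 genes 11 were higher and 5 lower, which is not a count of targets alone. The TEAD letters GGAATG (reverse complement CATTCC) were found in 9 of 12 promoters of the list (75%) and in 1468 of all 10166 (14.4%). Those of the regulators Yap1, Wwtr1, Tead3 and Lats2 were among the 9. The Ankrd1 promoter, shown because that gene led the increases, held the letters at 2 places, in capitals.
Ankrd1, chr19:36119942-36120074, minus strand: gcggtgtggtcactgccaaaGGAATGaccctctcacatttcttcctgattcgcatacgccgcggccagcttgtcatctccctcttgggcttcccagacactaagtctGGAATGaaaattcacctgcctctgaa

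Smooth muscle contractile genes, many of which answer to SRF and its MRTF and myocardin partners, had 4 of 17 higher and 10 lower, and 11 higher and 6 lower under the authors' library sizes. Actg2, the enteric smooth muscle actin, had 425, 426, 408 and 419 CPM in KO libraries, against 67.3, 71.8, 71.6 and 75.9 CPM in WT libraries, a log2 fold change of 2.55 ± 0.05 (adjusted p = 2.30e-26). Acta2, the vascular form and one of the 10 most abundant genes, did not pass the test at -0.05 ± 0.04, and was higher by 0.45 under the authors' library sizes. Mylk, the kinase of the myosin light chain, had 32.4, 32.5, 31.9 and 29.9 CPM in KO libraries, against 186, 180.3, 201 and 197 CPM in WT libraries, a log2 fold change of -2.59 ± 0.04 (adjusted p = 6.26e-29), and Myocd and Des fell, at -3.0 ± 0.19 and -4.07 ± 0.24.

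BMP and TGF-beta ligands act through paired receptors on SMAD proteins and guide bone and cartilage formation. Their pathway divided evenly, 15 of 36 measured genes higher and 14 lower, and 13 and 17 when scaled to total counts or 16 and 18 with chromosome medians set to 0, but single ligands and antagonists were far apart. Of the ligands, Bmp5 had 0.0568, 0.0539, 0.0628 and 0 CPM in KO libraries, against 15.1, 15.7, 15.4 and 16 CPM in WT libraries, and Gdf6, which marks joints, had 0.142, 0.0808, 0 and 0.0979 CPM in KO libraries, against 5.81, 5.94, 5.31 and 4.47 CPM in WT libraries. Tgfb3 had 65.8, 64.3, 62.2 and 64.9 CPM in KO libraries, against 214, 218, 218 and 224 CPM in WT libraries, while Inhba, the activin A chain, had 139, 151, 142 and 149 CPM in KO libraries, against 45, 46.8, 44.8 and 44.8 CPM in WT libraries. Bmp5 and Gdf6 were close to silent in KO libraries, at -8.34 ± 0.17 (adjusted p = 8.56e-27) and -5.99 ± 0.24 (adjusted p = 1.19e-19), Tgfb3 fell, at -1.77 ± 0.04, and Inhba rose by 1.68 ± 0.05. Acvrl1 (ALK1), a receptor best known from vessels, had 0.199, 0.512, 0.408 and 0.587 CPM in KO libraries, against 27.1, 25.6, 26.8 and 29.6 CPM in WT libraries, a log2 fold change of -6.0 ± 0.12 (adjusted p = 6.02e-27). Ltbp2, a microfibril protein related to those that store TGF-beta, had 109.9, 104, 96.6 and 100.3 CPM in KO libraries, against 849, 904, 853 and 874 CPM in WT libraries, a log2 fold change of -3.08 ± 0.05 (adjusted p = 4.22e-29). Of the antagonists, Chrdl1 had 8.17, 8.7, 9.65 and 8.45 CPM in KO libraries, against 0.0253, 0.166, 0.285 and 0.271 CPM in WT libraries, and the decoy receptor Bambi had 17.3, 16.6, 17.2 and 17.1 CPM in KO libraries, against 2.4, 2.74, 2.87 and 3.28 CPM in WT libraries. Chrdl1 and Bambi were higher in every KO library, but the antagonists Grem1 and Fst fell, at -0.88 ± 0.06 and -0.58 ± 0.05. Bmp4 did not pass the test at 0.02 ± 0.06 and the target Id1, at 0.18 ± 0.06, was little moved.

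Wnt proteins act through Frizzled and LRP receptors and are held back by secreted antagonists. Of 29 measured genes, 14 were higher and 12 lower, and 16 and 9 under the authors' library sizes. The antagonists moved in both directions: Sfrp1 had 31.6, 29.4, 33.2 and 33.5 CPM in KO libraries, against 275, 276, 256 and 278 CPM in WT libraries, and Wif1 had 0.0851, 0.162, 0.0943 and 0.0979 CPM in KO libraries, against 3.46, 4.87, 3.56 and 4.03 CPM in WT libraries. Sfrp4 had 5.17, 5.06, 4.56 and 4.7 CPM in KO libraries and no count in WT libraries, at least 274-fold higher against 3 counts over the group, and Dkk2 had 1.73, 1.24, 1.29 and 1.83 CPM in KO libraries, against 0.0505, 0, 0.0203 and 0 CPM in WT libraries. Sfrp1 and Wif1 thus fell, at -3.09 ± 0.06 (adjusted p = 1.15e-23) and -5.12 ± 0.23 (adjusted p = 3.18e-18), and Dkk2 rose by 6.16 ± 0.47 (adjusted p = 5.98e-13). Sfrp2 and Dkk3, which were abundant in both groups, fell, at -0.6 ± 0.04 and -0.74 ± 0.03. Among ligands Wnt10a had 0.0851, 0.0808, 0.0628 and 0.0326 CPM in KO libraries, against 2.05, 2.01, 1.95 and 2.19 CPM in WT libraries, and Wnt5a had 29.9, 28.5, 30.1 and 31.2 CPM in KO libraries, against 49.3, 54.1, 52.6 and 54.2 CPM in WT libraries. Axin2, a general readout of Wnt signalling, had 4.8, 5.09, 5.88 and 4.54 CPM in KO libraries, against 2.43, 2.74, 3.13 and 2.65 CPM in WT libraries, a log2 fold change of 0.88 ± 0.1 (adjusted p = 3.50e-09).

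FGF receptors signal through the ERK kinases to ETV factors and to Sprouty proteins, which feed back on the pathway. Of 16 measured genes, 11 rose and 4 fell, with a median of 0.6. Fgfr1 had 331, 328, 318 and 320.0 CPM in KO libraries, against 149.9, 159.9, 155 and 159.5 CPM in WT libraries, a log2 fold change of 1.05 ± 0.04 (adjusted p = 2.91e-20). Etv4 had 92.6, 92, 85 and 88.1 CPM in KO libraries, against 10.8, 12, 10.8 and 9.07 CPM in WT libraries. Etv4 rose by 3.06 ± 0.07 (adjusted p = 4.10e-21), and the Sprouty genes also rose, Spry4 by 2.08 ± 0.08, Spry1 by 1.66 ± 0.07 and Spry2 by 1.17 ± 0.07. Not every feedback gene of the list rose, as the 4 that fell included such a gene. Dusp4, an ERK phosphatase, rose by 2.77 ± 0.09, while the early gene Fos fell, at -1.61 ± 0.07.

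Insulin-like growth factors are held by binding proteins (IGFBPs), which the protease Pappa cuts and the stanniocalcins Stc1 and Stc2 protect. Igf1 had 18.9, 19.3, 22.6 and 23.1 CPM in KO libraries, against 41.9, 39.9, 41.3 and 40.9 CPM in WT libraries, a log2 fold change of -0.97 ± 0.07 (adjusted p = 1.32e-13). Pappa had 105, 123, 112 and 109 CPM in KO libraries, against 6.22, 6.13, 6.61 and 6.72 CPM in WT libraries, and its inhibitor Stc2 had 17.3, 18.9, 17.2 and 18.7 CPM in KO libraries, against 0.581, 0.757, 0.732 and 0.894 CPM in WT libraries. Protease and inhibitor both rose, by 4.13 ± 0.09 (adjusted p = 3.44e-21) and 4.6 ± 0.1 (adjusted p = 1.84e-25). The binding proteins moved in both directions: Igfbp4 had 34.6, 28.9, 33 and 29.5 CPM in KO libraries, against 228, 242, 234 and 242 CPM in WT libraries, Igfbp5 had 13.8, 12.1, 14.3 and 10.6 CPM in KO libraries, against 0.253, 0.213, 0.387 and 0.0271 CPM in WT libraries, and Igfbp6 had 43.6, 45.1, 42.5 and 41.8 CPM in KO libraries, against 4.98, 5.58, 5.11 and 4.93 CPM in WT libraries. Igfbp4 fell, at -2.91 ± 0.05 (adjusted p = 9.33e-29), and Igfbp5 and Igfbp6 rose by 5.76 ± 0.26 (adjusted p = 2.64e-14) and 3.07 ± 0.06 (adjusted p = 8.45e-27). Over the list 11 of 18 genes were higher and 7 lower.

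Notch receptors are cut when a neighbouring cell's ligand binds them, and their freed tail acts with Rbpj on Hes and Hey genes. Notch3, the receptor of mural cells, had 5.08, 5.15, 5.78 and 3.79 CPM in KO libraries, against 276, 281, 276 and 278 CPM in WT libraries, a log2 fold change of -5.8 ± 0.06 (adjusted p = 1.56e-33). Notch1 had 29.7, 27.5, 26.3 and 26.2 CPM in KO libraries, against 86.8, 83.5, 83.7 and 85.8 CPM in WT libraries, and Rbpj had 340.0, 339.6, 356 and 345 CPM in KO libraries, against 92, 90.9, 90.6 and 86.3 CPM in WT libraries. Notch1 fell with Notch3, at -1.63 ± 0.05 (adjusted p = 1.46e-22), Notch2 did not pass the test at 0.00 ± 0.04, and Rbpj and the target Hey1 rose by 1.94 ± 0.04 (adjusted p = 1.05e-25) and 3.69 ± 0.32 (adjusted p = 1.19e-11). Hey1 stood at only 1.65 CPM in KO and 0.126 CPM in WT on average.

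Of growth factor genes and their receptors, Hgf, hepatocyte growth factor, had 0.681, 0.62, 0.974 and 0.946 CPM in KO libraries, against 22.4, 22.9, 23.2 and 22.6 CPM in WT libraries. The PDGF receptor Pdgfra had 21.5, 22.6, 22.7 and 19.9 CPM in KO libraries, against 79.6, 82.8, 82.4 and 81 CPM in WT libraries, and Egfr had 38.2, 39.4, 41.4 and 37.5 CPM in KO libraries, against 132, 133, 140.4 and 136 CPM in WT libraries. All 3 were lower in every KO library, at -4.84 ± 0.1 (adjusted p = 6.73e-27), -1.91 ± 0.04 (adjusted p = 2.86e-26) and -1.79 ± 0.04 (adjusted p = 2.78e-26). Of the VEGF family, Figf (VEGF-D) fell, at -2.64 ± 0.06, Vegfa rose by 0.78 ± 0.03, and the receptors Flt1 and Kdr rose by 4.01 ± 0.2 and 2.81 ± 0.21, with means of 3.61 CPM in KO and 0.222 CPM in WT for Flt1 and of 2.08 CPM in KO and 0.285 CPM in WT for Kdr.

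Retinoic acid, a morphogen made from vitamin A by retinaldehyde dehydrogenases and removed by CYP26 enzymes, was represented by 15 measured genes, of which 6 were higher and 8 lower in KO, and 9 and 6 under the authors' library sizes. Aldh1a2, the main synthetic enzyme, had 0.199, 0.0808, 0.0628 and 0.0326 CPM in KO libraries, against 109, 111, 116 and 112 CPM in WT libraries, a log2 fold change of -10.13 ± 0.1 (adjusted p = 4.98e-34). Cyp26b1, which degrades retinoic acid, had 17.4, 16.2, 16.3 and 15.5 CPM in KO libraries, against 97.4, 105, 102 and 101 CPM in WT libraries, a log2 fold change of -2.63 ± 0.06 (adjusted p = 8.33e-26). Both enzyme genes were lower in every KO library, while Rdh10, which makes retinaldehyde, rose by 0.22 ± 0.07. Rarb, a receptor gene that retinoic acid itself induces, had 1.42, 1.13, 0.848 and 1.04 CPM in KO libraries, against 0.328, 0.568, 0.712 and 0.704 CPM in WT libraries, a log2 fold change of 0.94 ± 0.24 (adjusted p = 0.000859).

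In marrow, stromal cells hold blood stem cells with CXCL12 and KIT ligand. Of 15 niche factors 4 were higher and 8 lower in KO, and 7 and 8 under the authors' library sizes. Cxcl12 had 826, 823, 870.4 and 874 CPM in KO libraries, against 4752, 4741, 4899.9 and 4932 CPM in WT libraries, a log2 fold change of -2.51 ± 0.04 (adjusted p = 6.37e-28). Vcam1, which holds blood cells, had 73.1, 75, 79.1 and 81 CPM in KO libraries, against 289, 287, 291 and 286 CPM in WT libraries, and Kitl had 24.1, 24.9, 26.1 and 26.9 CPM in KO libraries, against 59.2, 59.5, 61.5 and 59.7 CPM in WT libraries. These niche factors all fell, Vcam1 at -1.9 ± 0.04 (adjusted p = 2.68e-27) and Kitl at -1.23 ± 0.05 (adjusted p = 2.24e-19). Ebf3, a transcription factor of CXCL12-rich stroma, had 0.0851, 0.0539, 0.251 and 0.196 CPM in KO libraries, against 20.7, 21.9, 22.5 and 22.5 CPM in WT libraries, while Lepr, the leptin receptor that marks the same stroma in mouse marrow, had 4.99, 4.71, 4.08 and 4.28 CPM in KO libraries, against 0.0758, 0.0237, 0.0814 and 0.0271 CPM in WT libraries. Ebf3 and Lepr moved in opposite directions, at -7.24 ± 0.14 (adjusted p = 7.82e-27) and 6.31 ± 0.24 (adjusted p = 5.83e-20). In bulk RNA fewer cells of a kind and less RNA per cell cannot be told apart.

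Position along the limb and trunk is recorded by Hox and other homeobox genes, which cultured stromal cells keep. The list joined them with limb factors of other families, the Tbx, Twist and Osr genes. Of its 56 genes 25 were higher and 25 lower, with 10 and 15 at least 2-fold. Hoxd8 had 5.48, 4.93, 5.5 and 4.86 CPM in KO libraries and no count in the 4 WT libraries, at least 291-fold higher against 3 counts over the group. Hoxc12, a gene of the far end of the body axis, had 0.17, 0.0539, 0.0628 and 0.196 CPM in KO libraries, against 10.9, 10.5, 8.97 and 10.1 CPM in WT libraries, and Irx1, a factor of digits, had 0.199, 0.135, 0.126 and 0.0979 CPM in KO libraries, against 39.5, 40.3, 37.3 and 38.9 CPM in WT libraries. The 2 cultures therefore differed in which homeobox genes were on at all, with log2 fold changes of -6.37 ± 0.22 (adjusted p = 3.54e-21) for Hoxc12 and -8.08 ± 0.11 (adjusted p = 3.05e-30) for Irx1. Prrx1, the limb mesenchyme factor, had 144, 149, 164 and 161 CPM in KO libraries, against 444, 437, 452 and 439.8 CPM in WT libraries, a log2 fold change of -1.52 ± 0.04 (adjusted p = 1.97e-23).

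Lineage markers did not move as whole lists, with 9 osteoblast genes higher and 10 lower (11 and 8 under the authors' library sizes) and 5 cartilage genes higher and 6 lower (6 and 6). The 13 measured cartilage genes summed to 243 to 278 CPM in KO libraries and 4571 to 5131 CPM in WT libraries, nearly all of it Col2a1 in WT. Sox9, the master factor of cartilage, had 17, 19.2, 17.8 and 17.8 CPM in KO libraries, against 53, 56.1, 51.6 and 56.2 CPM in WT libraries, a log2 fold change of -1.59 ± 0.06 (adjusted p = 1.65e-19). Acan, the cartilage proteoglycan, went the other way, with 2.13, 2.18, 2.2 and 1.76 CPM in KO libraries and no count in WT libraries, at least 116-fold higher against 3 counts over the group. Of 15 fat cell genes 7 rose and 8 fell. Dgat2, which makes triglyceride, rose by 2.9 ± 0.09, and Klf15, a transcription factor of fat and muscle, by 2.92 ± 0.33. Pparg, Fabp4 and Lpl fell, at -2.29 ± 0.06, -4.91 ± 0.07 and -4.0 ± 0.07, as did Zfp423, a factor of fat precursors, at -6.56 ± 0.14. Of osteoblast genes, Smpd3, needed for mineralization, had 6.33, 7, 6.13 and 5.74 CPM in KO libraries, against 109, 106, 105 and 112 CPM in WT libraries, Phospho1, a phosphatase of matrix vesicles, had 12.4, 12.2, 12.9 and 11.9 CPM in KO libraries, against 1.44, 1.49, 1.55 and 1.52 CPM in WT libraries, and Pth1r, the parathyroid hormone receptor, had 13.5, 10.3, 10.8 and 8.29 CPM in KO libraries, against 1.79, 1.75, 2.26 and 2.36 CPM in WT libraries. Smpd3 fell, at -4.09 ± 0.07 (adjusted p = 6.38e-26), while Phospho1 and Pth1r rose by 3.04 ± 0.11 (adjusted p = 7.88e-21) and 2.4 ± 0.18 (adjusted p = 4.95e-09).

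Imprinted genes are read from 1 parental copy and many act on growth. Of 20 genes, 10 were higher and 10 lower, and 12 and 5 under the authors' library sizes. Grb10, an adaptor that restrains insulin and IGF receptors, had 400.3, 394, 407 and 404 CPM in KO libraries, against 21.7, 22.4, 21.6 and 23.2 CPM in WT libraries, a log2 fold change of 4.18 ± 0.04 (adjusted p = 3.91e-34). Meg3 and Rian, noncoding RNAs of 1 imprinted cluster, had 27.9, 25.4, 26.9 and 26.4 CPM in KO libraries, against 3.06, 4.07, 4.17 and 4.14 CPM in WT libraries for Meg3, and 19.2, 19.9, 18.7 and 20.5 CPM in KO libraries, against 2.38, 2.13, 1.87 and 2.06 CPM in WT libraries for Rian. Both rose, by 2.78 ± 0.08 (adjusted p = 1.67e-23) and 3.22 ± 0.1 (adjusted p = 4.99e-22). H19 and the cell cycle inhibitor Cdkn1c, from another cluster, stood at 0.729 and 1.16 CPM in KO and at or close to 0 in WT.

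p53 halts the cycle or kills cells after DNA damage by switching on genes such as Cdkn1a, Mdm2 and Ccng1. Trp53 RNA itself had 222, 217, 208 and 214 CPM in KO libraries, against 217, 224, 217 and 222 CPM in WT libraries, and did not pass the test at -0.03 ± 0.04 (adjusted p = 0.442), but was higher by 0.47 under the authors' library sizes and by 0.4 with chromosome medians set to 0. Of 22 genes in the p53 list, 1 rose and 19 fell, with a median of -2.11 and 14 at least 2-fold lower, and their summed level was 916 to 933 CPM in KO libraries against 3684 to 3744 CPM in WT libraries. Ccng1, cyclin G1, had 48.8, 50.1, 55.4 and 52 CPM in KO libraries, against 1149, 1136, 1148 and 1120.4 CPM in WT libraries, a log2 fold change of -4.47 ± 0.05 (adjusted p = 1.28e-30). Cdkn1a (p21), which stops cyclin-dependent kinases, had 20.9, 17.9, 20.5 and 18.2 CPM in KO libraries, against 137, 147, 139 and 139 CPM in WT libraries. The death receptor genes Eda2r and Fas had 1.02, 0.862, 1.29 and 1.01 CPM in KO libraries, against 96, 95.7, 98.7 and 93.9 CPM in WT libraries for Eda2r, and 2.07, 1.97, 2.36 and 2.77 CPM in KO libraries, against 42, 43.3, 42.4 and 43.3 CPM in WT libraries for Fas. Levels in KO were a small part of those in WT for each, and Cdkn1a fell, at -2.86 ± 0.04 (adjusted p = 9.94e-30), Eda2r, at -6.53 ± 0.07 (adjusted p = 2.25e-33), and Fas, at -4.23 ± 0.07 (adjusted p = 5.58e-28). Cdkn2a, whose locus encodes p16 and p19Arf, had 172, 179, 165 and 179.9 CPM in KO libraries, against 62.8, 62.8, 63.5 and 62.4 CPM in WT libraries, and rose by 1.47 ± 0.04 (adjusted p = 4.53e-23), and Rb1 fell, at -1.34 ± 0.06.

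Mitotic genes rose in 18 of 22 cases, 4 did not pass the test, and 2 exceeded 2-fold. Mki67, the proliferation marker, had 417, 449.9, 414 and 407 CPM in KO libraries, against 203, 196, 199 and 211 CPM in WT libraries, a log2 fold change of 1.06 ± 0.04 (adjusted p = 1.44e-20). Genes of DNA replication had 20 of 28 higher and 4 lower. Myc, which drives growth, had 216, 212, 206 and 211 CPM in KO libraries, against 81.9, 83.9, 76 and 81.7 CPM in WT libraries, a log2 fold change of 1.39 ± 0.04 (adjusted p = 7.77e-24), and 19 of 25 genes of ribosome assembly and the Myc network rose. The finished ribosome was another matter: of 71 ribosomal protein genes 30 were higher and 29 lower, none by 2-fold. This balance depended on scaling, with 59 higher and 2 lower under the authors' library sizes. It was 26 and 36 when scaled to total counts, and 14 and 32 with chromosome medians set to 0.

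Interferon signals through JAK kinases and raises antiviral genes, MHC class I and the machinery that cuts and loads peptides onto it. Of 27 such genes 1 rose and 24 fell in KO, with a median of -1.46. The peptide transporter Tap1 had 4.57, 4.39, 4.84 and 6.36 CPM in KO libraries, against 114, 112, 114 and 118 CPM in WT libraries, and the immunoproteasome chain Psmb8 had 2.64, 2.88, 3.27 and 3.52 CPM in KO libraries, against 70.6, 70.5, 69.6 and 71.6 CPM in WT libraries. Both fell, at -4.52 ± 0.09 (adjusted p = 3.09e-22) for Tap1 and -4.53 ± 0.08 (adjusted p = 1.81e-26) for Psmb8. Tap2 and Psmb9 fell, at -3.91 ± 0.06 and -4.39 ± 0.13. The light chain of MHC class I, B2m, had 338, 336, 367 and 381 CPM in KO libraries, against 294, 304, 313 and 314 CPM in WT libraries, and did not follow them, at 0.22 ± 0.04 (adjusted p = 1.66e-05). KO library 8 was the highest KO library for the interferon genes Irf7, with 0.482, 0.512, 0.88 and 2.68 CPM in KO libraries, and Oasl2, with 1.76, 1.45, 1.6 and 3.72 CPM in KO libraries, and both stayed below every WT library.

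The letters of the interferon-stimulated response element, GAAA repeated after 2 bases of any kind, stood on either strand in 9 of 22 promoters of the list (40.9%) and in 370 of all 10166 (3.64%). Ifit1, which fell, at -1.29 ± 0.22 (adjusted p = 0.00011), and B2m are printed to show that a gene that fell and one that did not both carry them, in capitals.
Ifit1, chr19:34640765-34640833, plus strand: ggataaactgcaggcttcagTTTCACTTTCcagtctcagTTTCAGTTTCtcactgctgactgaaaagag
B2m, chr2:122147528-122147577, plus strand: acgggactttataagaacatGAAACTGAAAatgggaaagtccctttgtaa

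Macrophages can persist in marrow cultures and express interferon and MHC genes. Of 22 listed macrophage markers 20 were measured, and all 20 were lower in KO, summing to 45.6 to 54 CPM in KO libraries and 207 to 231 CPM in WT libraries. The list shares a gene with the stromal progenitor markers, so its sum is not a measure of macrophage RNA alone. Tyrobp, an adaptor of myeloid cells, had 0.454, 0.512, 0.566 and 0.587 CPM in KO libraries, against 4.17, 4.5, 3.46 and 4.09 CPM in WT libraries. The part of macrophage RNA in the interferon and cytokine differences was not tested. The cytokine antagonist Il1rn had 1.82, 1.83, 2.04 and 1.86 CPM in KO libraries, against 127, 123, 113 and 116 CPM in WT libraries, and the chemokine Ccl7 had 7.8, 9.67, 10.9 and 10.9 CPM in KO libraries, against 112, 113, 106 and 105 CPM in WT libraries. Both were lower in every KO library, at -5.99 ± 0.1 (adjusted p = 5.37e-25) and -3.48 ± 0.07 (adjusted p = 9.50e-25). Over the cytokine list 6 of 20 genes rose and 12 fell, and among those that rose were the chemokine gene Cxcl1, by 1.57 ± 0.08, and Ptgs2 (COX-2), which makes prostaglandins, by 1.45 ± 0.07.

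The difference between genotypes varied by chromosome. The median log2 fold change was 0.83 over 492 genes of chromosome 13, 0.68 over 369 genes of chromosome 18, 0.68 over 833 genes of chromosome 4 and 0.41 over 998 genes of chromosome 7. It was -0.46 over 484 genes of chromosome 12, -0.44 over 1120 genes of chromosome 11 and -0.38 over 665 genes of chromosome 6. Along chromosome 13, each of 9 consecutive windows of 50 genes had a median above 0, and so did each of 16 windows on chromosome 4, while none of 22 windows on chromosome 11 did. On chromosome 13, 79.1% of genes were called higher and 12.6% lower, which is a middle gene 1.77-fold higher in KO. At day 7 the medians of chromosomes 13, 4 and 12 were 0.70, 0.61 and -0.45. Changes of single genes are given with these shifts left in, except where a value with chromosome medians set to 0 is stated. DNA copy number was not measured and its part in these shifts was not tested. With each chromosome's median set to 0, 11303 genes were called, 5618 higher (41.7%) and 5685 lower (42.2%).

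**Figure D3:**
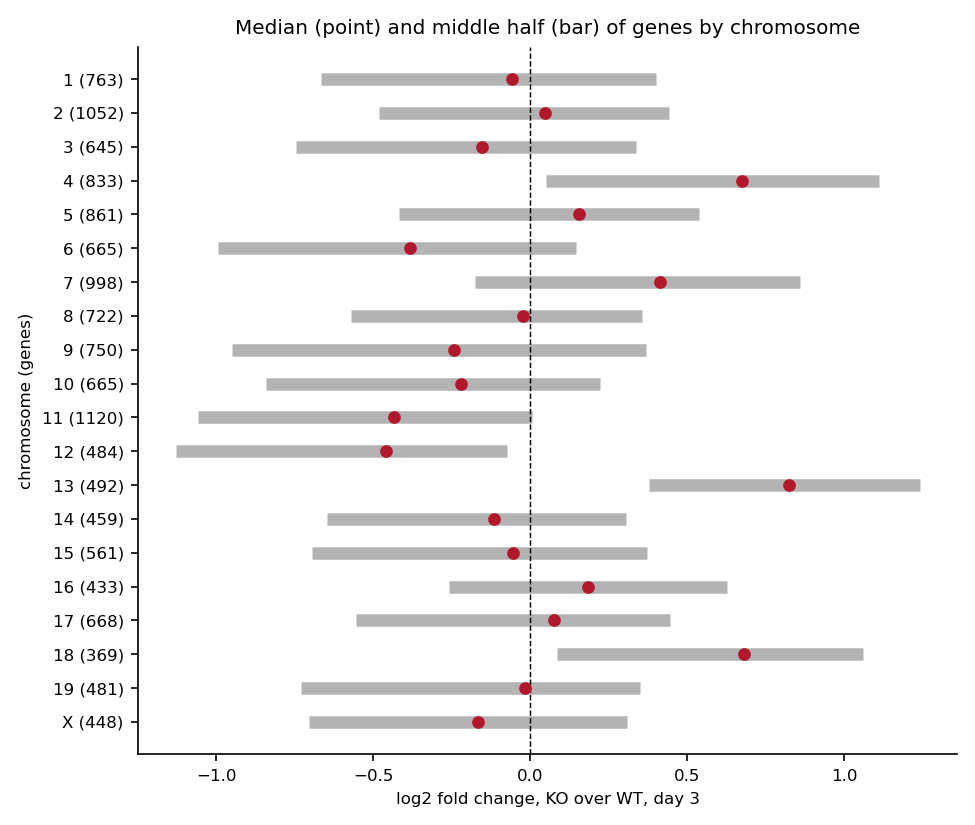
Log2 fold change of KO over WT at day 3 by chromosome, with the median of its genes as a point, the interquartile range as a bar, and a dashed line at 0. Chromosomes 13, 18 and 4 lie farthest to the right among autosomes and chromosomes 12, 11 and 6 farthest to the left.

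Of the 5 measured genes of the Y chromosome 4 fell and 1 rose, with a median log2 fold change of -1.03. The quartiles were -1.19 and -0.956. Together the 5 genes took 0.0215% to 0.0234% of all CPM in KO libraries and 0.0256% to 0.0277% in WT libraries. That share includes the gene that rose, so it does not measure the loss of the 4 that fell. Ddx3y, an RNA helicase gene among those that fell, had 0.142, 0.0539, 0.126 and 0.0653 CPM in KO libraries, against 68.7, 63.2, 69.3 and 64 CPM in WT libraries, a log2 fold change of -9.38 ± 0.12 (adjusted p = 3.54e-31). It was almost silent in the KO libraries.

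The same contrast in the denser osteogenic cultures at day 7 used other libraries. There 11592 genes (86%) were called, 5618 higher (41.7%) and 5974 lower (44.3%). Of the 5788 genes higher at day 3, 4309 were also higher at day 7, which is 74.4% of the day 3 list and 76.7% of the day 7 list. Of the 5850 lower genes, 4565 were lower at both days, which is 78% of the day 3 list and 76.4% of the day 7 list. The test of genotype by day called 8889 genes (66%), 4378 upward (32.5%) and 4511 downward (33.5%), so the size of most differences was not the same in the 2 cultures, which differ in density, medium and time together.

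Amino acid genes were farther from WT at day 7: the median was 1.38 at day 3 and 2.39 at day 7, and 21 of 22 passed the interaction test upward. Trib3 had a log2 fold change of 3.3 at day 3 and 6.79 at day 7, an interaction of 3.5 ± 0.1 (adjusted p = 8.48e-22). Mitotic genes turned round: 18 were higher and 0 lower at day 3, 0 higher and 20 lower at day 7, and all 22 passed the interaction test downward. Mki67 had 1.06 at day 3 and -0.86 at day 7. Interferon genes moved the other way, with a median of -1.46 at day 3 and 0.35 at day 7 and 24 of 27 interactions upward. At day 7 they were mixed, with 14 higher and 10 lower, 8 and 6 of them at least 2-fold. Osteoblast genes had a median of -0.23 at day 3 and 1.32 at day 7, and Spp1 had -1.1 at day 3 and 1.65 at day 7, an interaction of 2.75 ± 0.19 (adjusted p = 1.94e-08). The p53 list was lower at both days, with medians of -2.11 and -1.69. Pappa was the reverse case, at 4.13 at day 3 and -1.32 at day 7, an interaction of -5.44 ± 0.12 (adjusted p = 5.13e-20).

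**Figure D4:**
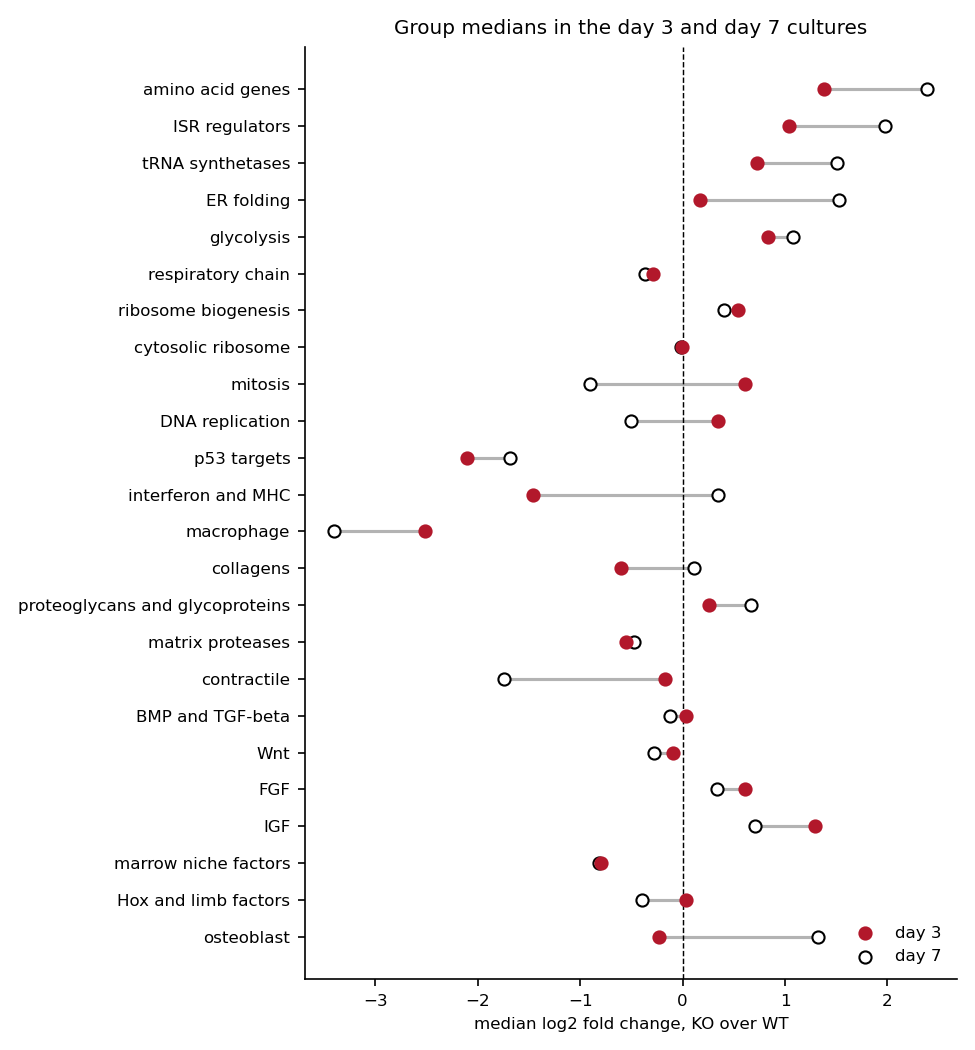
Median log2 fold change of KO over WT for 24 gene groups at day 3 (filled circles) and day 7 (open circles), joined by a line for each group. Mitosis, DNA replication and contractile genes lie lower at day 7, while amino acid, ER folding, interferon and osteoblast genes lie higher.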

How the data were processed

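Polyadenylated RNA was sequenced as 16 strand-specific paired-end libraries, per the labels' protocols, and all 8 day 3 libraries are described here. Gene counts were deposited as whole-number raw counts per gene, with the authors' scaled values (a normalized signal per gene) beside them. STAR 2.4.2a, featureCounts, edgeR and mouse build mm10 are named in the submitters' processing notes. The gene annotation, the strand setting of the counting and the handling of reads that match several genes are not given in the sources used here. Overlapping genes and near-identical copies are therefore uncertain. No gene of the table has a summed count under 105; 22 symbols read as dates and 1 duplicated symbol are not named.

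All 16 libraries entered 1 edgeR 4.0.16 fit (TMM scaling, robust quasi-likelihood, 4 groups, R 4.3.3) with Benjamini-Hochberg adjustment over all 13474 genes. A gene was called at an adjusted p under 0.05, and ± after a log2 fold change is its standard error. Fold changes are KO over WT. The fit had 12 residual degrees of freedom and a common coefficient of variation of 4.25% between wells. The procedure was run on simulated counts in which a small set of genes was changed, in both directions. That run does not test the scaling where most genes differ, as they do here. CPM were computed from the raw counts with TMM factors. Alternatives were another tool (DESeq2 1.42.0) and scaling, the day 3 libraries alone, filters, a test against a 1.5-fold change, chromosome medians set to 0, and each library left out.

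Genes were named by a rule: Zfp384, the 10 most abundant, the 8 with the highest and the 8 with the lowest fold change among called genes with at least 50 CPM and no overlap, for each of 48 gene lists the anchors and up to 4 called members of largest change with at least 1 CPM, and, where a list is described by ligands, receptors or subunits, members with at least 20 CPM, of which some are given. A further set was chosen after its values were seen: Aars, Aldoa, Bambi, Cd44, Cth, Cxcl1, Cyr61, Ddit4, Dgat2, Dkk3, Eno1, Eprs, Fst, Gars, Grem1, Ifit1, Irf7, Kitl, Klf15, Nt5e, Oasl2, Pdgfrb, Pdk1, Pgk1, Plau, Prrx1, Psat1, Psph, Rdh10, Sesn2, Sfrp2, Slc38a2, Slc3a2, Slc7a5, Spry2 and Vcam1. The comparison and the lists were chosen with earlier results of these data known. Promoter sequences, 250 bases before to 50 after the start, are RefSeq's on GRCm38.p6 and were matched by symbol for 10166 genes. Motif shares cover this whole window on both strands, and printed stretches come from the bases before the start.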

Additional observations from a re-analysis of the deposited data

Results flagged for a closer look

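In 21 of 417 groups of 4 libraries checked, 1 library stood apart from the other 3 by more than the usual limit for a group of that size, and chance alone marks about 1 group in 20. KO library 8 was low for Acan (1.76 CPM), Iars (354 CPM) and Bmp5 (0 CPM) and high for the interferon gene Oasl2 (3.72 CPM). KO library 7 was high for Asns (256 CPM), Slc38a2 (382 CPM) and Slc7a11 (23.6 CPM), and KO library 6 was high for H19 (1.16 CPM) and Wif1 (0.162 CPM). WT library 1 was low for Cdh11 (485 CPM), Ldhb (322 CPM) and Meg3 (3.06 CPM), while WT library 1b was high for Inhba (46.8 CPM), Mmp13 (289 CPM) and Cox6a2 (0.0237 CPM). WT library 3 was low for Ldha (449 CPM) and Sfrp1 (256 CPM) and high for Eprs (254 CPM) and Cdkn1c (0.0407 CPM), and WT library 4 was low for Kdr (0.135 CPM) and high for H19 (0.0271 CPM). For Cox6a2, Cdkn1c and H19 in WT the other 3 libraries were at 0. There any count in 1 library sets the flag, so the chance rate does not apply to them. Leaving out any single day 3 library moved no named gene across the threshold and changed the sign of none that passed.

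The genotype difference depended on the culture for many genes. The test of genotype by day called 8889 genes, and 1426 genes were called in opposite directions at day 3 and day 7, among them 15 of the named genes. Taking the day 7 log2 fold change minus that of day 3, the difference was 4.02 for Aldoc, 2.15 for Hmox1, 3.62 for Irf7, -5.44 for Pappa and 2.75 for Spp1. Day 7 cultures differ from day 3 cultures in density, medium and time together, and these cannot be told apart.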

How the results depend on the processing

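Over 18 alternatives, 3757 of 3793 values of named genes kept their side of the threshold without turning round, 16 no longer passed, 14 newly passed and 6 turned round. A change of sign was counted as turning round only where the test was passed in the main or the alternative setting. Values near 0 that passed in neither may have changed sign uncounted. The 6 that turned were Acta2 (0.45), Pdgfrb (0.49), Slc38a2 (0.44) and Trp53 (0.47) under the library sizes implied by the authors' scaled values, and Lox (-0.65) and Trp53 (0.4) with chromosome medians set to 0. Under the authors' library sizes 3220 genes were called lower and 3473 at least 2-fold higher, against 5850 and 1583 with TMM, and the cause of the difference in library sizes was not tested. Against a 1.5-fold change 5733 genes passed, 2578 higher and 3155 lower. Total counts alone gave 5282 higher and 6318 lower genes. Leaving out each library in turn gave 11439 to 11493 called genes, and the counts of list members moved by over 1.5 times in 96 of 1728 cases, none of them with a library left out. The unfiltered table gave the same calls, since no gene of it fell under the filter. No paired analysis was possible because the KO and WT groups share no replicate numbers. With 1 culture per genotype, no setting tested here separates the knockout from the culture. Depth limits genes near 0 CPM, for which single counts decide a library's value.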

Other observations

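Of 74 semaphorin, ephrin, Slit and cadherin genes, 34 were higher and 35 lower in KO at day 3, with 17 and 22 at least 2-fold, against 11.7% and 17.2% of all genes, and 40 and 27 under the authors' library sizes. Cdh13, a cadherin without a cytoplasmic tail, had 18.6, 16.1, 18 and 17.2 CPM in KO libraries, against 0.278, 0.142, 0.142 and 0.244 CPM in WT libraries, a log2 fold change of 6.45 ± 0.13 (adjusted p = 6.85e-27). Slit1, a secreted repellent of axons, had 0.0851, 0.189, 0.0314 and 0.0653 CPM in KO libraries, against 15.5, 15.5, 15.2 and 15.5 CPM in WT libraries, and Pcdh1, a protocadherin, had 0.199, 0.269, 0.189 and 0.163 CPM in KO libraries, against 26.5, 25.6, 24.9 and 26.6 CPM in WT libraries. Both were near 0 in every KO library, at -7.27 ± 0.17 (adjusted p = 6.15e-25) and -6.94 ± 0.15 (adjusted p = 5.17e-26). Robo3, a Slit receptor, had no count in the 4 KO libraries and 1.06, 1.4, 0.916 and 1.44 CPM in WT libraries. The broadly used cadherins moved less: Cdh2 (N-cadherin) rose by 1.04 ± 0.03 (adjusted p = 5.02e-23) and Cdh11, the cadherin of osteoblasts, fell, at -0.78 ± 0.04 (adjusted p = 5.33e-17).

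Clustered protocadherins, whose first exons are chosen one promoter at a time and give cells different surface identities, had 15 of 36 genes higher and 18 lower. The counts were 18 and 14 under the authors' library sizes, and 10 and 22 with chromosome medians set to 0. Pcdhga12 had 14.8, 16.6, 15.9 and 14.8 CPM in KO libraries, against 0.177, 0.0473, 0.183 and 0.108 CPM in WT libraries, and Pcdhgb2 had 1.05, 0.916, 1.01 and 1.21 CPM in KO libraries, against 30.7, 33.9, 32.7 and 31.7 CPM in WT libraries. These 2 isoforms of a single cluster were far apart in opposite directions, at 6.85 ± 0.16 (adjusted p = 3.62e-25) and -4.95 ± 0.1 (adjusted p = 4.32e-27). Isoforms of the cluster share their last exons, so how the counting divided reads among them is uncertain.

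Among the remaining groups, the 24 autophagy and lysosome genes had 7 higher and 16 lower at day 3 and 20 higher and 2 lower at day 7, and 23 passed the interaction test upward. Ctsl, cathepsin L, was higher on both days, at 1.63 and 2.43. Under the authors' library sizes the day 3 counts of this list were 18 higher and 3 lower. Of antioxidant genes, Hmox1, heme oxygenase, had -1.02 at day 3 and 1.13 at day 7, with an interaction of 2.15 ± 0.06 (adjusted p = 6.75e-23).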
